A study of Mus musculus with 6 samples.

Results

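The 8 genes described here are markers of homeostatic microglia, the resting state of the resident immune cells of the brain: P2ry12, P2ry13, Tmem119, Cx3cr1, Siglech, Gpr34, Crybb1 and Selplg. They were taken by symbol from the 32285 genes of each count matrix, and all 8 were present in every matrix. The study sequenced nuclei of mouse cortex in 6 libraries, after nuclei carrying the neuronal protein NeuN had been sorted away. All mice were 7.5 months old and labelled as 5xFAD, which stands for transgenes with familial Alzheimer's disease mutations that lead to amyloid plaques. The 3 groups, of 2 libraries each, were mice with 5xFAD only, mice that also carried a variant of Plcg2 (the gene of the signalling enzyme phospholipase C-γ2) called M28L, labelled 5xFAD-M28L here, and mice that carried the Plcg2 variant P522R, labelled 5xFAD-P522R. Males and females were mixed within every library. How many mice entered a library, and whether the variants were homozygous, is not given in the sources used here. No group labelled as free of 5xFAD was analysed here, and the transgenes were not checked in the counts. P-values between groups measure only the spread between the 2 libraries of a group, estimated over the 3 groups together. The p-value of a contrast therefore also depends on the group outside it. P-values by sex or for the gap between states measure how differences within a library varied between libraries. Either spread may be technical.

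Homeostatic microglia survey the tissue with moving processes, and several of their markers are receptors that serve this role. P2RY12 and P2RY13 sense ADP released by damaged cells, CX3CR1 binds fractalkine (CX3CL1) shown by neurons, and GPR34 responds to lysophosphatidylserine. When microglia meet plaques they are known to lower these genes and to raise a disease-associated set that includes Apoe, Lpl, Itgax and Gpnmb. That change depends in part on the receptor TREM2, whose signal phospholipase C-γ2 relays. SIGLEC-H is a receptor of the SIGLEC family that signals through the adaptor encoded by Tyrobp, and SELPLG is the ligand of P-selectin. TMEM119 is a membrane protein used to tell microglia from other macrophages, and CRYBB1 is a crystallin first known from the lens.

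Positions below are from GRCm38 with the GENCODE vM21 annotation, since the deposited counts were made on mm10. P2ry12 lies on chromosome 3 from 59216272 to 59262871 on the minus strand. P2ry13 lies 5389 bases away, from 59207892 to 59210882 on the same strand. Both lie inside Med12l, which is read from the plus strand. Tmem119 (chromosome 5, 113793729 to 113800516) and Selplg (113818536 to 113832644) are also neighbours, 18019 bases apart and both on the minus strand. Crybb1 lies on the same chromosome from 112255815 to 112269585 on the plus strand. Siglech lies on chromosome 7 from 55768178 to 55778925 on the plus strand. Cx3cr1 lies on chromosome 9 from 119901616 to 120069879 on the minus strand, a span that overlaps 9 other genes. Gpr34 lies on chromosome X from 13632089 to 13640858 on the plus strand, inside Cask on the minus strand. Whether the counting used strand or introns is not given in the sources used here. Nuclear reads from Med12l, Cask or the genes under Cx3cr1 could therefore be shared with these members where the counting did not separate them. In microglia-like nuclei Med12l had 243 CPM over the 6 libraries summed (counts of a gene per 1000000 UMIs of its population), Cask 382 and Wdr48, the most abundant of the genes overlapping Cx3cr1, 51.4.

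The sequence before the start of P2ry13, Siglech and Crybb1 is shown because the data below bear on these genes: an ADP receptor, and the 2 members that, with P2ry12, differed between groups in how far they drop in disease-associated microglia. RefSeq promoter windows (GRCm38.p6, 250 bases before the start) matched 5 of the 8 members. The windows of P2ry12 and Cx3cr1 lie wholly in annotated exons of other transcripts and are not printed. The windows of Siglech and Crybb1 are shortened by the 6 and 5 bases that lie in an exon. They were searched on both strands for 3 words: GAGGAA, the core bound by the macrophage factor PU.1 (encoded by Spi1), GGAAGT, a core common to ETS factors, and the ETS-IRF composite element bound by PU.1 with an interferon regulatory factor. Capitals mark a match, on the strand of the gene, and ACTTCC is GGAAGT read from the other strand.
P2ry13, chr3:59210883-59211132, minus strand: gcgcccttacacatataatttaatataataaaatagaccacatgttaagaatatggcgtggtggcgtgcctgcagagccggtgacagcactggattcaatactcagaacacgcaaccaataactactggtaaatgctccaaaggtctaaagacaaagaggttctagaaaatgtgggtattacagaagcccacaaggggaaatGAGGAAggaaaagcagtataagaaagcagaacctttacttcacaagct
Siglech, chr7:55767934-55768177, plus strand: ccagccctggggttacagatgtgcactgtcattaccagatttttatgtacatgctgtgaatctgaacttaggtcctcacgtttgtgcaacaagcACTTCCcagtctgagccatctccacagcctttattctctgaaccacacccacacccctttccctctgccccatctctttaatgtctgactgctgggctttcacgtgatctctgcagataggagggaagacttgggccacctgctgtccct
Crybb1, chr5:112255570-112255814, plus strand: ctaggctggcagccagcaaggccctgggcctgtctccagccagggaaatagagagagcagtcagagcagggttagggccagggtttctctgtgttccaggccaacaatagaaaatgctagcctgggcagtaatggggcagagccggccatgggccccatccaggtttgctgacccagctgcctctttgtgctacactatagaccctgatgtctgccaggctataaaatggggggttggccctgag
P2ry13 held GAGGAA starting 48 bases before its start, and Siglech held GGAAGT 156 bases before its RefSeq start. The count for Siglech includes the 6 exonic bases that are not printed. Crybb1 held none of the 3 words. Among the 5 matched windows GAGGAA was found in 1, GGAAGT in 2 and the composite in 0. Over all 32851 RefSeq promoter windows the shares were 23.3%, 19.7% and 2.3%.

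The 6 libraries held 53326947 to 72288942 UMIs (unique molecules) over 9269 to 13783 barcodes. All 62651 nuclei that passed the filters were clustered into 38 clusters, and 59690 remained once called doublets were removed. Of 62126 barcode sequences among the nuclei that passed, 503 occurred in more than 1 library. Clusters were named with "-like" from markers that did not include the 8 members. Microglia-like nuclei numbered 872 to 1641 per library and were clustered again into a homeostatic-like, a disease-associated-like, an interferon-responsive-like and an early response-like state (Cd83 and immediate early genes). Nuclei of border macrophages, which live in the meninges and around vessels, formed a class of 30 to 88 nuclei per library. 1 library stood apart. In 5xFAD replicate 2, 14.4% of microglia-like nuclei were disease-associated-like, against 44.7% in 5xFAD replicate 3. Of its 423 nuclei with Xist and no Y-linked UMI, 3 were disease-associated-like (0.709%, exact 95% interval 0.146 to 2.06), against 119 of its 506 nuclei with Y-linked UMIs (23.5%, 19.9 to 27.5). A homeostatic-like cluster of 456 nuclei came mostly from this library (401 nuclei). Whether the female mice pooled in this library carried the transgenes was not tested, and that limits what its values stand for as 5xFAD. For some of the results that rest on it, values without it are also given.

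All 8 genes were concentrated in microglia-like nuclei. The level of P2ry12 there was 651 to 998 CPM per library (median 761, n = 6), with a UMI in a median 80.7% of nuclei. In oligodendrocyte-like nuclei, which should lack the gene, its median was 6.42 CPM, with a UMI in 2.24% of nuclei. The same comparison of medians gave 684 against 8.20 CPM for Cx3cr1, 845 against 3.68 for Siglech and 657 against 3.06 for Selplg. It gave 287 against 3.80 CPM for Gpr34, 60.5 against 0.792 for Tmem119, 36.8 against 0.364 for Crybb1 and 24.1 against 0.238 for P2ry13. Oligodendrocyte-like nuclei are the background against which the other classes are read. Tmem119 was also above that background in fibroblast-like nuclei, with 6.41 to 18.9 CPM per library from 50 UMIs in all. In bulk sums of nuclei, fewer positive nuclei and less RNA per nucleus cannot be told apart, and the share of nuclei with a UMI depends on depth.

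P2ry12 was also counted in other classes. Astrocyte-like nuclei held a median 25.4 CPM of it, neuron-like nuclei 15.8 and oligodendrocyte precursor-like nuclei 13.1, against 2.49, 4.34 and 1.81 CPM of Siglech. The ratio of P2ry12 UMIs to Siglech UMIs was 0.848 to 1.09 per library in microglia-like nuclei. It was 7.60 to 35.8 in astrocyte-like nuclei, 3.95 to 29.6 in oligodendrocyte precursor-like nuclei, 1.41 to 9.07 in neuron-like nuclei and 1.40 to 2.17 in oligodendrocyte-like nuclei. All these ranges lie above the microglial one. Med12l, the gene that contains P2ry12 on the other strand, had a median of 221 CPM in astrocyte-like, 227 in neuron-like and 278 in oligodendrocyte precursor-like nuclei, against 20.3 in oligodendrocyte-like nuclei. Its part in the P2ry12 counts was not tested.

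**Figure D1:**
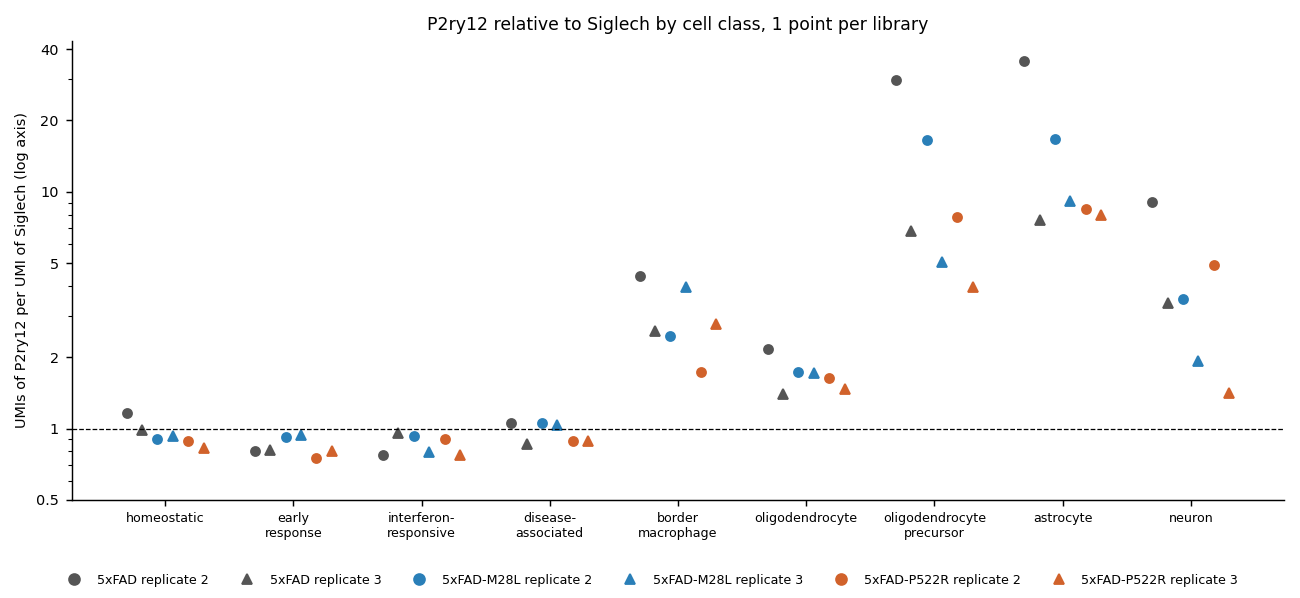
UMIs of P2ry12 divided by UMIs of Siglech (vertical log axis) by state or class of nuclei (horizontal axis), with 1 point per library, colour for the group and shape for the replicate. The 4 microglial states lie around 1, border macrophage-like nuclei between 1.74 and 4.41, and astrocyte-like nuclei between 7.60 and 35.8.

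Within microglia the members were ordered by state in the same way for most genes, from homeostatic-like through interferon-responsive-like and early response-like to disease-associated-like. The states were defined by other genes of the same nuclei, so these levels are a description without a test. In homeostatic-like nuclei P2ry12 had 1199 and 986 CPM in the 5xFAD libraries (replicates 2 and 3), 950 and 934 in 5xFAD-M28L, and 1073 and 1055 in 5xFAD-P522R. In disease-associated-like nuclei it had 506 and 457, 672 and 674, and 480 and 484 CPM in the same order. Every library was lower in the disease-associated-like state, at a median of 46.2% of its homeostatic-like level (42.2% to 72.2%). The 2 5xFAD-M28L libraries kept the highest share, 70.8% and 72.2%.

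The sizes of the drop differed among the members. The largest was that of Crybb1, whose disease-associated-like level was a median 11.8% of the homeostatic-like level (5.34% to 32.3%). Tmem119 had 22.8% (17.1% to 45.0%) and Selplg 38.6% (37.0% to 51.6%). The receptors lay in the middle: Siglech kept 49.5% (42.8% to 64.9%), Cx3cr1 63.3% (51.2% to 71.7%) and P2ry13 75.5% (56.1% to 93.9%), each lower in 6 of 6 libraries. Gpr34 stood apart, at 97.0% (75.8% to 103%) and lower in only 4 of 6 libraries, so its level did not separate the states. P2ry13 rests on 12 to 55 UMIs and Crybb1 on 5 to 32 UMIs per library in disease-associated-like nuclei. The order of neighbours in this list is loose, since the ranges of P2ry12, Siglech and Selplg overlap.

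**Figure D2:**
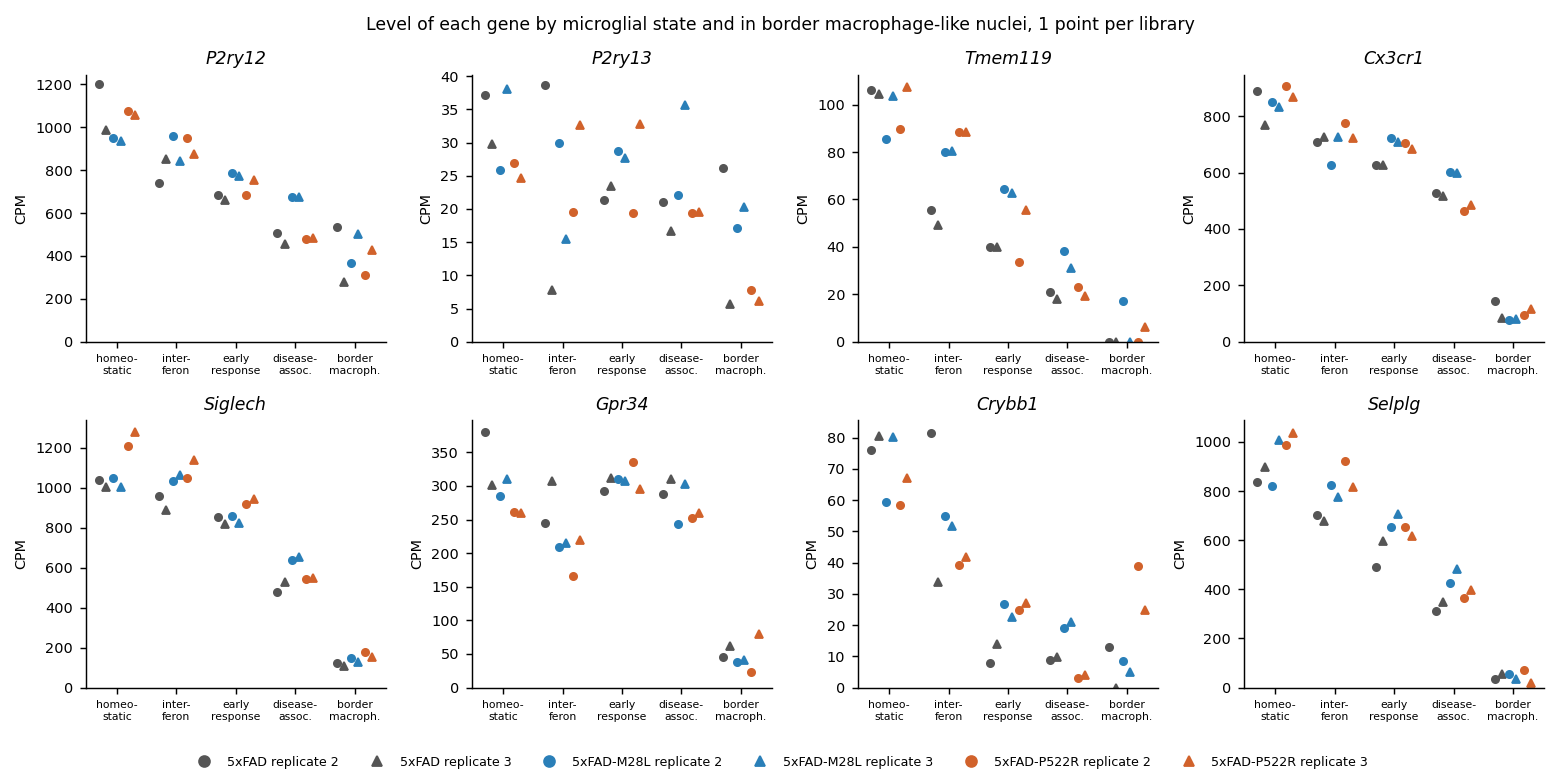
Level in CPM (vertical axes, from 0) of each of the 8 genes in the 4 microglial states and in border macrophage-like nuclei (horizontal axis), with 1 point per library, colour for the group and shape for the replicate. P2ry12, Tmem119, Cx3cr1, Siglech and Selplg step down from left to right, while Gpr34 stays between 167 and 380 CPM in all microglial states and is lower in border macrophage-like nuclei.

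**Figure D3:**
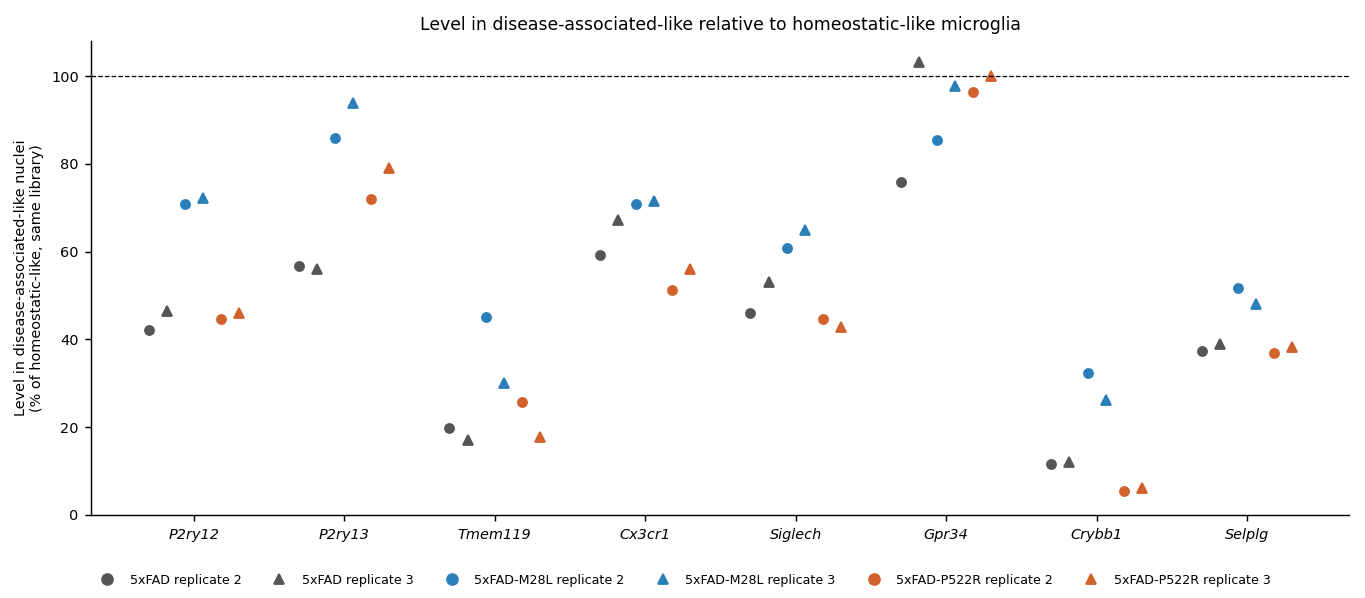
Level in disease-associated-like nuclei as a percent of the level in homeostatic-like nuclei of the same library (vertical axis) for each gene (horizontal axis), with 1 point per library. Values run from 5.34% for Crybb1 to 103% for Gpr34, and the blue 5xFAD-M28L points lie above those of the other groups for P2ry12, P2ry13, Tmem119, Cx3cr1, Siglech, Crybb1 and Selplg. The share of all genes with this pattern was not counted.

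The early response-like state was lower than the homeostatic-like one in 6 of 6 libraries for P2ry12, Tmem119, Cx3cr1, Siglech, Crybb1 and Selplg. Its medians ran from 34.2% for Crybb1 and 45.0% for Tmem119 to 80.0% for Cx3cr1 and 81.6% for Siglech. Gpr34 was again the exception, at 106% and lower in 2 of 6 libraries. Interferon-responsive-like nuclei had the values nearest to homeostatic-like ones for most members, with medians of 90.6% for Siglech and 87.4% for P2ry12. Gpr34 was lower there than in the other microglial states, at 71.4% (63.8% to 102%). Thinned to 1000 UMIs per nucleus, a homeostatic-like nucleus held UMIs of 2.61 to 2.84 of the 8 genes on average, a disease-associated-like nucleus 1.55 to 2.02 and an oligodendrocyte-like nucleus 0.0165 to 0.0321. At that depth P2ry12 was seen in a median 59.3% of homeostatic-like and 36.6% of disease-associated-like nuclei, and in 88.8% and 67.0% at full depth. Thinning left out 82 oligodendrocyte-like nuclei and none of the microglial states.

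Gpr34 also differed from the other members in how it varied over the 28 sums of a microglial cluster in a library (at least 20 nuclei each). Its Pearson correlation with the mean of the members was 0.365, and that of P2ry13, with few UMIs, was 0.605. The other 6 had 0.892 to 0.952. The closest pair was Selplg and Siglech (r = 0.96) and the most distant Gpr34 and Tmem119 (r = 0.0101). These values describe sums that share libraries and depth. Over 34 sums with border macrophage-like nuclei included, the genes most like the members' mean among 9148 were Rapgef5 (r = 0.977), Mgat4a (0.962), Herc2 (0.961), Numb (0.961) and Tanc2 (0.960). Without border macrophage-like nuclei Rapgef5 still ranked 1, while Herc2 ranked 120.

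Border macrophage-like nuclei held less of all 8 members than homeostatic-like microglia in 6 of 6 libraries, with a larger share left of P2ry12 than of Cx3cr1, Siglech, Gpr34 or Selplg. Selplg stood at a median 5.12% of the homeostatic-like level, Cx3cr1 at 10.7%, Siglech at 12.3% and Gpr34 at 13.2%. Tmem119 had 0 UMIs in 4 of 6 libraries, where a count of 0 allows up to 9.84 to 23.3 CPM, and 5 UMIs in all. Crybb1 had 16 UMIs and P2ry13 had 19, too few for a level per library. P2ry12 had 535 and 278 CPM in the 5xFAD libraries, 367 and 501 in 5xFAD-M28L and 311 and 426 in 5xFAD-P522R, a median 39.5% of the homeostatic-like level (28.2% to 53.6%). In disease-associated-like microglia it had 457 to 674 CPM, a range that overlaps this one. The ratio of P2ry12 to Siglech was 1.74 to 4.41 in these nuclei, above the 0.825 to 1.16 of homeostatic-like microglia in 6 of 6 libraries. A cluster of 66 nuclei in this class, 34.8% of them called doublets and removed, also had other markers raised. These were 12 of 12 oligodendrocyte and 11 of 12 astrocyte markers, and the part of this cluster in the ratio was not tested. Sall1, a transcription factor that marks microglia, had a median of 4.48 CPM in border macrophage-like nuclei and 374 in homeostatic-like nuclei. Med12l had 76.8 CPM there, and its part in the P2ry12 level was not tested. Between groups none of the 5 members with enough counts passed in border macrophage-like nuclei (edgeR quasi-likelihood test, Benjamini-Hochberg adjustment over 4515 genes). In each of the 3 contrasts 0% of genes passed there, with 132 to 156 genes at an unadjusted p under 0.05 and 0 by DESeq2. P2ry12 differed by 0.07 (log2, SE 0.34) between M28L and 5xFAD, and it was −0.30 without 5xFAD replicate 3, −0.19 without 5xFAD-M28L replicate 3 and 0.63 without 5xFAD replicate 2. Cx3cr1 differed by −0.58 (SE 0.38) there (−0.12 without 5xFAD replicate 2), and Siglech by 0.48 (SE 0.30) between P522R and 5xFAD. Astrocyte transcripts stood at 2518 CPM in the border macrophage-like nuclei of 5xFAD-P522R replicate 2 and at 204 to 423 in the other 5 libraries, and their part was not tested.

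The groups were first compared over all microglia-like nuclei. The P522R libraries had lower levels of all 8 members than the M28L libraries, without overlap, but no member passed. P2ry12 had 998 and 651 CPM in the 5xFAD libraries, 844 and 815 in 5xFAD-M28L and 708 and 668 in 5xFAD-P522R. The 5xFAD libraries lie on either side of both variants, so their spread is wider than the gap between the variants. Med12l, on the other strand of the same locus, was also highest in 5xFAD replicate 2, with 415 CPM against 191 to 272 in the other 5 libraries, and its part was not tested. Tmem119 had 81.7 and 46.0, then 69.9 and 72.6, then 48.4 and 51.1 CPM. Crybb1 had 57.9 and 30.9, then 42.8 and 46.4, then 24.0 and 27.0 CPM. For both genes the 5xFAD replicates bracket the M28L pair, and P522R is lower than M28L in both libraries.

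Between P522R and M28L the log2 fold changes ranged from −0.18 (SE 0.12) for Siglech to −0.83 (SE 0.27, adjusted p = 0.345) for Crybb1, with a median of −0.32 against 0.00084 over all genes. Folds are from the edgeR fit, which scales libraries by TMM, while levels are plain CPM. P2ry12 differed by −0.31 (SE 0.17), Cx3cr1 by −0.28 (SE 0.12), Gpr34 by −0.21 (SE 0.099) and P2ry13 by −0.47 (SE 0.23). Tmem119 differed by −0.55 (SE 0.23) and Selplg by −0.33 (SE 0.12). Of 13696 genes 1 passed (0.00730%), 1475 were at an unadjusted p under 0.05 and DESeq2 called 98. Of the members 4 were at an unadjusted p under 0.05, and DESeq2 called 0. Both P522R libraries were below both M28L libraries for 8 of 8 members, where 21.8% of all genes were. Crybb1 passed when either 5xFAD library was left out, at −0.74 to −0.95 over the libraries left out.

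Against 5xFAD, P522R had negative fold changes for 8 of 8 members, with a median of −0.27. Gpr34 differed by −0.35 (SE 0.099, adjusted p = 0.280) and Crybb1 by −0.76 (SE 0.27, adjusted p = 0.379). The difference of Crybb1 ran from −0.27 without 5xFAD replicate 2 to −1.17 without 5xFAD replicate 3. No gene passed in this contrast (0% of 13696), 1535 were at an unadjusted p under 0.05 and DESeq2 called 96. Of the members 2 were at an unadjusted p under 0.05, and DESeq2 called 0. The result turned on the 5xFAD libraries. A fit without 5xFAD replicate 3 leaves only the 5xFAD library that stood apart. Over the libraries left out, P2ry12 ran from −0.54 to 0.072 and Tmem119 from −0.72 to 0.11. Cx3cr1 ran from −0.34 to 0.022 and Gpr34 from −0.44 to −0.26. Without 5xFAD replicate 2, 6 of the 8 turned positive: Siglech (0.16), Tmem119 (0.11), Selplg (0.11), P2ry13 (0.083), P2ry12 (0.072) and Cx3cr1 (0.022). For M28L against 5xFAD 7 members had positive fold changes and Gpr34 a negative one (−0.14, SE 0.099). The largest was 0.26 (SE 0.12) for Selplg (0.44 without 5xFAD replicate 2, 0.090 without 5xFAD replicate 3, 0.17 without 5xFAD-M28L replicate 3). Without 5xFAD replicate 3 all members but Selplg were negative, P2ry12 at −0.24 and Crybb1 at −0.35. None passed or reached an unadjusted p of 0.05 with all libraries, and DESeq2 also called 0. Of all genes 1 passed (0.00730%) there.

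The mix of states also differed between these libraries. Disease-associated-like nuclei made up 14.4% and 44.7% of microglia-like nuclei in the 5xFAD libraries, 13.4% and 17.2% in 5xFAD-M28L, and 44.5% and 43.4% in 5xFAD-P522R. When every library was weighted to the same mix of 4 clusters, 1 per state, the median member difference between P522R and M28L went from −0.28 to −0.079 (log2 of CPM). The number of members higher in P522R went from 0 to 2 of 8. Against 5xFAD the median went from −0.24 to 0.035, and the number higher in P522R from 0 to 6 of 8. For M28L against 5xFAD it went from 0.12 to 0.15. The own mix covers all microglia-like nuclei. The 4 clusters leave out the cluster that came mostly from 5xFAD replicate 2, with 401 of its 1222 nuclei, and smaller clusters. The part of this omission in the changes was not tested. Oligodendrocyte transcripts in microglia-like nuclei were also higher in P522R (1083 and 1710 CPM, 12 genes summed) than elsewhere (670 to 800), and astrocyte transcripts lower (517 and 504 against 748 to 843). Their part in the members' differences was not tested.

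**Figure D4:**
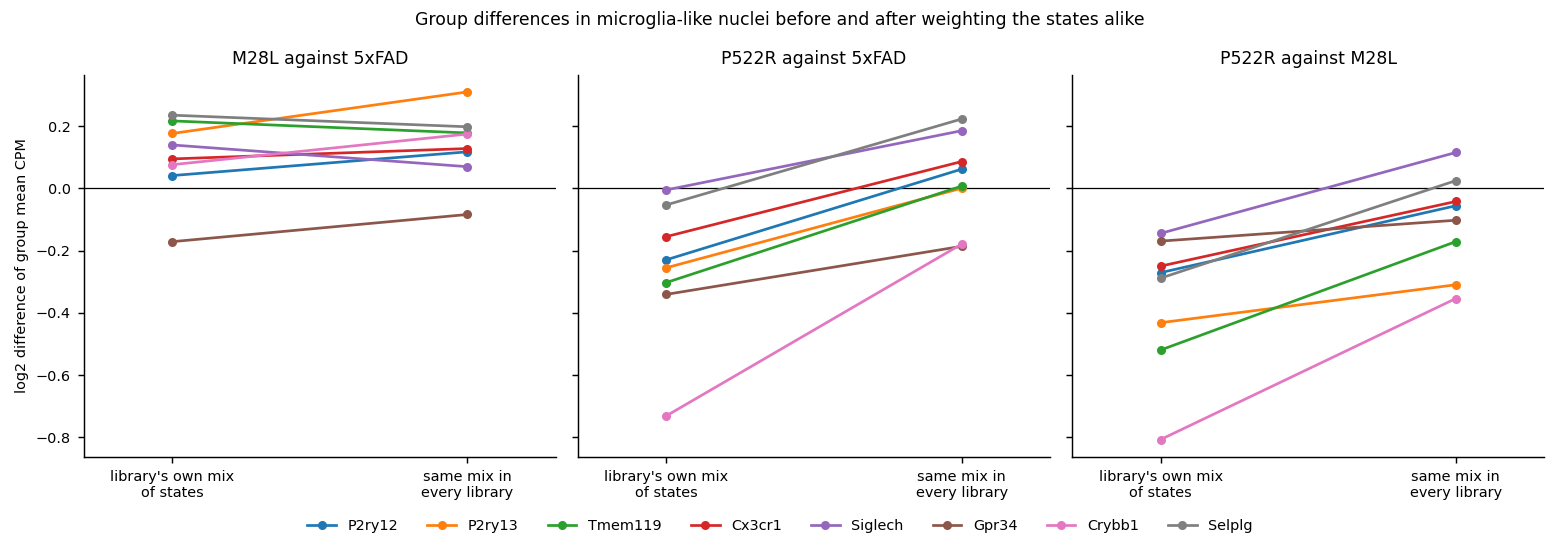
log2 difference of each member between groups in microglia-like nuclei (vertical axis), with each library's own mix of states (left) and with the same mix in every library (right), 1 line per gene and 1 panel per contrast. The left values cover all microglia-like nuclei, the right ones only 4 clusters, 1 per state. In the P522R panels the medians rise, from −0.24 to 0.035 against 5xFAD and from −0.28 to −0.079 against M28L.

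Within homeostatic-like nuclei no member passed in any contrast, and DESeq2 called none. The shares of genes that passed were 0.0177% for M28L against 5xFAD, 0.0883% for P522R against 5xFAD and 0.0530% for P522R against M28L, of 11329 genes. The members did not move together here. Siglech had 1036 and 1001 CPM in the 5xFAD libraries, 1050 and 1003 in 5xFAD-M28L and 1208 and 1278 in 5xFAD-P522R, so both P522R libraries lay above the other 4. Its log2 fold change was 0.28 (SE 0.080, adjusted p = 0.294) against 5xFAD and 0.25 (SE 0.080, adjusted p = 0.737) against M28L. Gpr34 had 380 and 301, then 286 and 310, then 261 and 260 CPM, with P522R lowest. Its log2 fold change was −0.40 (SE 0.12, adjusted p = 0.295) against 5xFAD, and −0.54 to −0.22 when each library was left out in turn. Against M28L Gpr34 differed by −0.23 (SE 0.12).

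Selplg had 837 and 897, then 822 and 1006, then 989 and 1037 CPM, a difference of 0.21 (SE 0.097, adjusted p = 0.509) between P522R and 5xFAD. P2ry12 differed by −0.19 (SE 0.092, adjusted p = 0.799) between M28L and 5xFAD, with both M28L libraries below both 5xFAD libraries. Without 5xFAD replicate 2 this was −0.048, and without 5xFAD replicate 3 −0.32. Med12l in these nuclei had 493 CPM in 5xFAD replicate 2 and 255 to 311 in the other 5 libraries, and its part was not tested. Unadjusted p was under 0.05 for 1 member in M28L against 5xFAD, for 3 in P522R against 5xFAD and for 1 in P522R against M28L. The share of all genes at that level is not given here, so these counts are not read as a result about the members. Oligodendrocyte transcripts in these nuclei were 781 and 842 CPM in 5xFAD-P522R and 594 to 774 in the other libraries, astrocyte transcripts 566 and 606 against 796 to 924, and their part was not tested.

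In disease-associated-like nuclei, between M28L and 5xFAD P2ry12 rose by 0.50 (log2, SE 0.11, adjusted p = 0.0216), from 506 and 457 to 672 and 674 CPM. It was the only member of 8 that passed, while 0.720% of 10416 genes did. Between P522R and M28L P2ry12 fell by 0.52 (SE 0.10, adjusted p = 0.0103), to 480 and 484 CPM. Crybb1 fell by 2.46 (SE 0.47, adjusted p = 0.00690), with 19.2 and 21.1 CPM in M28L and 3.12 and 4.12 in P522R. These 2 of 8 members passed, while 0.874% of genes did. Med12l had 244 and 182 CPM in 5xFAD, 235 and 181 in 5xFAD-M28L and 163 and 181 in 5xFAD-P522R, lowest in both P522R libraries, and its part was not tested. Crybb1 rests on 13 and 23 UMIs in the M28L libraries and on 5 and 11 in the P522R libraries.

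The other members had the same direction without passing, apart from Gpr34. Both M28L libraries were above both 5xFAD libraries for 7 of 8 members (19.1% of all genes). The comparison of P522R with M28L shares these M28L libraries. Tmem119 had 21.1 and 17.9, then 38.4 and 31.1, then 23.1 and 19.1 CPM, differing by 0.89 (SE 0.30, adjusted p = 0.214) for M28L against 5xFAD and by −0.75 (SE 0.28, adjusted p = 0.295) for P522R against M28L. Selplg had 313 and 349, then 424 and 484, then 366 and 397 CPM, differing by 0.45 (SE 0.12, adjusted p = 0.0643) and −0.29 (SE 0.11, adjusted p = 0.319). The M28L pair was highest for both genes.

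Siglech had 478 and 530, then 640 and 651, then 541 and 547 CPM, differing by 0.35 (SE 0.11) and −0.28 (SE 0.10). Cx3cr1 had 527 and 518, then 603 and 597, then 464 and 485 CPM, differing by 0.21 (SE 0.10) and −0.37 (SE 0.10, adjusted p = 0.0977). P2ry13 differed by 0.78 (SE 0.32) and −0.66 (SE 0.30), but by 0.33 and −0.21 without 5xFAD-M28L replicate 3 and by 0.51 for M28L against 5xFAD without 5xFAD replicate 3. Crybb1 differed by 1.10 (SE 0.43) for M28L against 5xFAD. Gpr34, the lysophosphatidylserine receptor, had 288 and 310.5, then 244 and 303, then 252 and 260 CPM, and its groups overlapped (−0.12, SE 0.12, and −0.15, SE 0.12). For P522R against 5xFAD no member passed, with 0.0288% of genes passing, 2 members at an unadjusted p under 0.05 and 0 called by DESeq2. Crybb1 stood at −1.35 there (SE 0.48, adjusted p = 0.567) and Gpr34 at −0.26 (SE 0.12, adjusted p = 0.773). By edgeR 6 members were at an unadjusted p under 0.05 for M28L against 5xFAD and 7 for P522R against M28L. The share of all genes at that level in this state is not given here.

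The calls in this state rest on few libraries. P2ry12 between M28L and 5xFAD did not pass without 5xFAD replicate 3 (adjusted p = 0.284), M28L replicate 3 (0.213) or M28L replicate 2 (0.0511), and passed without 5xFAD replicate 2 (0.57, adjusted p = 0.0268). Between P522R and M28L it did not pass without M28L replicate 3 (0.140), P522R replicate 2 (0.124) or P522R replicate 3 (0.0922). Crybb1 did not pass without M28L replicate 3 (0.186) or P522R replicate 2 (0.0708). Neither gene passed when microglia were clustered more finely, at a log2 fold change of 0.40 (adjusted p = 0.160) and −0.39 (0.164) for P2ry12 and of −1.63 (0.206) for Crybb1. In that finer clustering 785 nuclei with all disease-associated markers were named for their MHC class II genes, and 365 with most of these markers for their interferon genes. Both clusters lay outside the nuclei compared. The summed disease-associated genes in these nuclei ran opposite to the members, with 7637 and 6864 CPM in 5xFAD, 5415 and 5831 in 5xFAD-M28L and 8313 and 7976 in 5xFAD-P522R. Of the 19 such genes tested 4 passed as lower in M28L than in 5xFAD (Dkk2, Gpnmb, Igf1 and Mamdc2) and 7 as higher in P522R than in M28L. These genes helped to define the state, and their part in the members' differences was not tested. Astrocyte transcripts in these nuclei were 667 and 643 CPM in 5xFAD, 832 and 763 in 5xFAD-M28L and 487 and 473 in 5xFAD-P522R. Oligodendrocyte transcripts were 724 and 777 CPM in 5xFAD-P522R and 532 to 679 elsewhere. Between M28L and 5xFAD 5 of 5 mitochondrial transcripts (median −0.72) and 15 of 20 ribosomal protein genes (median −0.18) had negative fold changes. Xist differed by 0.78 there, and 4 of 4 Y-linked genes were lower (median −0.56), as they were in P522R against M28L (median −0.40). The part of these in the P2ry12 and Crybb1 differences was not tested.

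**Figure D5:**
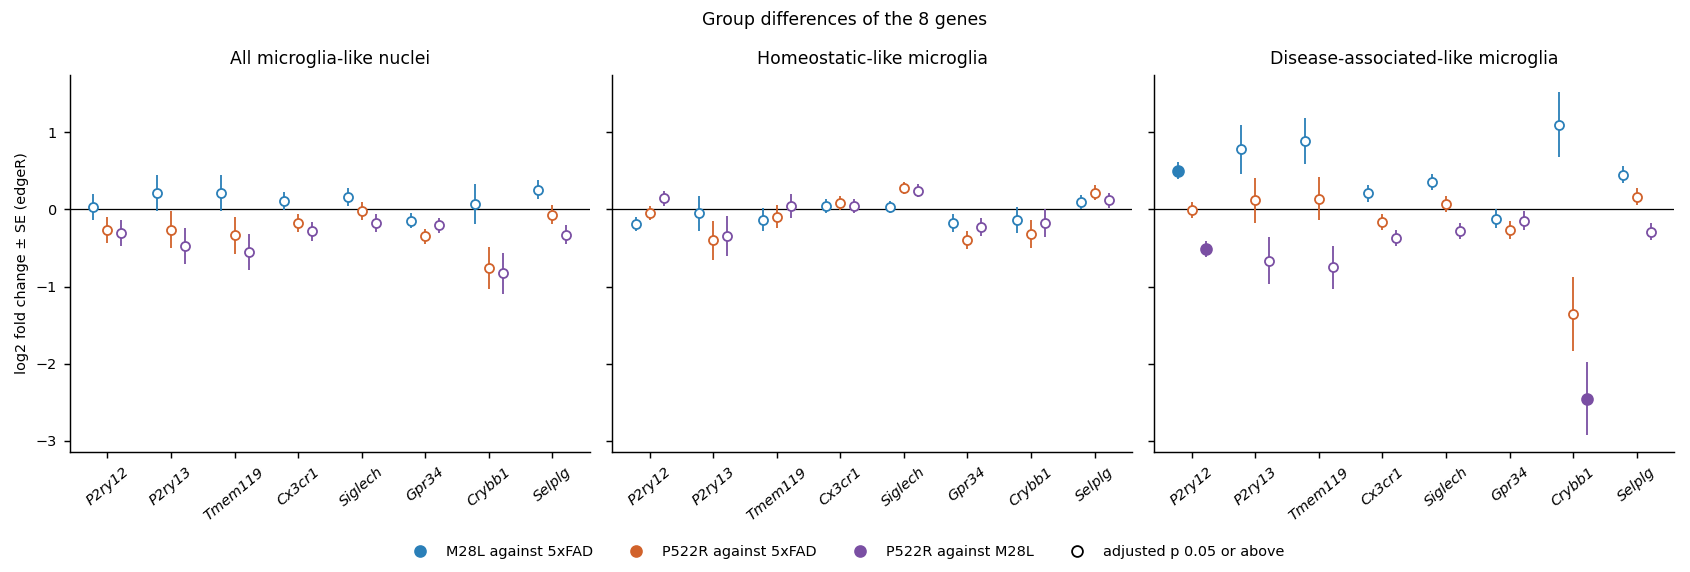
log2 fold change with its standard error (vertical axis) of each member (horizontal axis) for the 3 contrasts in all microglia-like, homeostatic-like and disease-associated-like nuclei, with filled points where the adjusted p was under 0.05. The filled points are P2ry12 (0.50 and −0.52) and Crybb1 (−2.46) in disease-associated-like nuclei, and no point is filled in the other panels.

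Whether the gap between the states differed between groups was tested with both states of a library in 1 fit and the library as a term. The gap of P2ry12 was smaller in M28L than in 5xFAD by 0.68 (log2, SE 0.11, adjusted p = 0.00115). It was larger in P522R than in M28L, with a difference of −0.65 (SE 0.11, adjusted p = 0.00145). These values are the change of the disease-associated-like level relative to the homeostatic-like level, so a positive one means that more expression was kept. Siglech differed by −0.52 (SE 0.11, adjusted p = 0.0213) and Crybb1 by −2.25 (SE 0.43, adjusted p = 0.00510) between P522R and M28L. The members that passed were 1 of 8 for M28L against 5xFAD, where 0.312% of 10565 genes did, and 3 of 8 for P522R against M28L, where 0.341% did.

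The members that did not pass lay in the same direction, apart from Gpr34, which differed by 0.017 (SE 0.15) for M28L against 5xFAD and by 0.097 (SE 0.15) for P522R against M28L. For M28L against 5xFAD Tmem119 differed by 1.01 (SE 0.31, adjusted p = 0.220), Crybb1 by 1.252 (SE 0.38, adjusted p = 0.195), Selplg by 0.38 (SE 0.12) and Siglech by 0.33 (SE 0.12). For P522R against M28L Cx3cr1 differed by −0.41 (SE 0.12, adjusted p = 0.151), Selplg by −0.40 (SE 0.12, adjusted p = 0.159) and Tmem119 by −0.78 (SE 0.30). For P522R against 5xFAD no member passed (0.00947% of genes passed), 2 were at an unadjusted p under 0.05 (Cx3cr1, −0.25, SE 0.12, and Crybb1, −1.001, SE 0.44) and DESeq2 called 0. DESeq2 called no member in the other 2 contrasts either (adjusted p = 0.243 and 0.205 for P2ry12). In the edgeR fit 5 members were at an unadjusted p under 0.05 for M28L against 5xFAD and 6 for P522R against M28L. How many of all genes reached that level in this fit is not given here. Without M28L replicate 3 the adjusted p of P2ry12 was 0.0604 and 0.0727, that of Crybb1 0.0757 and that of Siglech 0.352. Crybb1 also did not pass without P522R replicate 3 (0.0561), nor Siglech without M28L replicate 2 (0.0659), P522R replicate 2 (0.0651) or P522R replicate 3 (0.104). Over 15 alternative settings Siglech passed in 8, with values from −0.58 to −0.12. Without 5xFAD replicate 2, the library that stood apart, the gap of P2ry12 differed by 0.63 between M28L and 5xFAD (adjusted p = 0.0274).

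Between nuclei with Xist and nuclei with Y-linked UMIs no member passed over the 6 libraries, while 0.0663% of 10561 genes did. P2ry12 differed by 0.15 (SE 0.12, adjusted p = 0.848) and Cx3cr1 by −0.077 (SE 0.10, adjusted p = 0.899), no member reached an unadjusted p of 0.05 and DESeq2 called 0. In 5xFAD replicate 2 P2ry12 had 1353 CPM in nuclei with Xist and 788 in those with Y-linked UMIs, a log2 difference of 0.78. In 5xFAD replicate 3 it had 608 and 735 CPM, a difference of −0.27. The other 4 libraries had −0.080 to 0.36.

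Other genes known from homeostatic microglia formed a list of 17 that does not include the members. They were the markers that named the homeostatic-like state and were not left out of the clustering. Their values are therefore not independent of how the states were defined. In disease-associated-like nuclei 4 of 17 passed as lower in P522R than in M28L and none as higher, while 0.874% of all genes passed. Among the 4 were Olfml3 (−1.13, SE 0.25, adjusted p = 0.0278), Fcrls (−0.75, SE 0.11, adjusted p = 0.000438) and Mertk (−0.47, SE 0.094, adjusted p = 0.0101). Mertk, a receptor for the uptake of dying cells, had 3217 and 3273 CPM in 5xFAD-M28L and 2271 and 2523 in 5xFAD-P522R. Fcrls, an Fc receptor-like gene, was the 1 of 17 that passed for M28L against 5xFAD (0.53, SE 0.11, adjusted p = 0.0277). When each library was left out in turn, Olfml3 lost its call in 4 of 6 fits, Mertk in 2 and Fcrls, for M28L against 5xFAD, in 3. The list's median was −0.36 for P522R against M28L and 0.23 for M28L against 5xFAD, beside −0.44 and 0.48 for the members and −0.0043 and 0.00094 for all genes. For P522R against 5xFAD 13 of 17 were lower (median −0.14), while 4 of 8 members were. In homeostatic-like nuclei none of the 17 passed in any contrast. There 13 of 17 were lower in P522R than in M28L, while 5 of 8 members were higher, and 12 of 17 were higher in M28L than in 5xFAD, while 5 of 8 members were lower.

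Genes of purinergic signalling, the pathway of P2ry12 and P2ry13, gave no call in microglia-like, homeostatic-like or disease-associated-like nuclei. In disease-associated-like nuclei 4 of the 15 tested had a positive and 11 a negative fold change for P522R against M28L, with a median of −0.13. Entpd1, the enzyme (CD39) that breaks down extracellular ATP and ADP, had 1268 and 1407, then 1299 and 1465, then 1090 and 1163 CPM in homeostatic-like nuclei. Both P522R libraries were lowest, and the difference from 5xFAD was −0.26 on the log2 scale (SE 0.088, adjusted p = 0.371). Kcnk13, a potassium channel gene of this list, had 338 and 285, then 340 and 344, then 457 and 392 CPM there. Its P522R libraries were highest (0.43, SE 0.11, adjusted p = 0.237).

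Of the genes that encode partners of the members, Cx3cl1, the ligand of CX3CR1, had its highest median in neuron-like nuclei, 54.3 CPM, against 17.3 in endothelial-like and 2.57 in microglia-like nuclei. Selp and Sele, which encode P-selectin and E-selectin, had a median of 0 CPM in every class measured. Tyrobp, the adaptor of SIGLEC-H, had 78.6 CPM in microglia-like and 65.2 in border macrophage-like nuclei, and Siglech itself 845 and 138. Spi1, which encodes PU.1, was also alike in both (212 and 189 CPM). Tgfbr1, a receptor of the TGF-beta signal that keeps microglia homeostatic, had 2892 CPM in microglia-like and 350 in border macrophage-like nuclei. Of the 11 partner genes tested in disease-associated-like nuclei none passed in any contrast.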

How the data were processed

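UMI counts per gene and barcode were deposited by the authors as filtered matrices, made with Cell Ranger 6.1.2 on mm10 per the submitters' processing notes, and the file header of 1 library (5xFAD-P522R replicate 3) names version 5.0.1. The libraries are single-nucleus RNA sequencing of NeuN-depleted mouse cortex. Nuclei passed with 500 or more UMIs, 300 or more genes and a mitochondrial share of up to 5% (62651 nuclei). Scrublet scores called 2961 doublets, which were removed after the clustering of all nuclei. Total counts were 53326947 to 72288942 per library, and intervals and floors (3 counts) cover counting error only.

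Nuclei were clustered with scanpy 1.11.5 (2000 variable genes, 30 components, 20 neighbours, Leiden resolution 1), and microglia-like nuclei again (1000 genes, 15 components, resolution 0.5). The 8 members were left out of the variable genes and marker lists. The bounds for naming clusters were set after the clusters had been seen. UMIs were summed per library and population and tested with edgeR 4.0.16 under R 4.3.3, by its quasi-likelihood test (two-sided) after TMM scaling and filterByExpr (minimum count 10), all 6 libraries in 1 fit, Benjamini-Hochberg adjustment over all genes, threshold 0.05. Comparisons within a library (state by group, Xist-positive against Y-positive nuclei) had the library as a term. The test was checked on simulated data. CPM are UMIs of a gene per 1000000 UMIs of the population in a library.

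Alternatives were DESeq2 1.42.0, RLE scaling, other filters, a replicate block, other clusterings, 1 sex and each library left out. All 8 members are named in every comparison. Other genes named are up to 4 each of the other homeostatic and purinergic lists with the smallest p, partners of the members, and the 5 most alike. Fcrls, the disease-associated genes named and the genes that overlap a member were chosen after their values were seen. Some genes of the lists are not reported here. The members and lists were chosen with earlier results of these data known.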

Additional observations from a re-analysis of the deposited data

Results flagged for a closer look

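The gap between disease-associated-like and homeostatic-like microglia differed between groups for 3 members in the test of that difference (edgeR quasi-likelihood, library as a term). For P2ry12 the value was 0.6829 (log2) for M28L against 5xFAD and −0.6536 for P522R against M28L. For P522R against M28L it was −0.5234 for Siglech and −2.253 for Crybb1. Over 15 alternative settings P2ry12 passed in 12 in each contrast, Crybb1 in 10 and Siglech in 8.

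Contrasts by sex also stood out for 2 members, because both libraries of one group moved one way and both of the other group the opposite way. Those differences were not tested, and the share of all genes that meet this rule was not counted. The log2 ratio of Xist-positive to Y-positive nuclei of P2ry13 was lower in 5xFAD-P522R than in 5xFAD-M28L by a difference of −0.5986. That of Crybb1 was lower in 5xFAD-P522R than in 5xFAD by a difference of −1.548. It includes 5xFAD replicate 2 (0.85, against 0.32 in 5xFAD replicate 3), the library whose Xist-positive nuclei stood apart.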

How the results depend on the processing

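Groups of 2 libraries limit every test here, and calls moved with the settings. Numbers are given in the order M28L against 5xFAD, P522R against 5xFAD, P522R against M28L where 3 stand together. In microglia-like nuclei 1, 0 and 1 genes passed. Without a filter on low counts 153, 853 and 720 passed, with DESeq2 7, 96 and 98, in Y-positive nuclei 48, 107 and 140, and without the high-UMI and one-library clusters 20, 3 and 92. In Xist-positive nuclei and with the members kept in the clustering 0 passed for M28L against 5xFAD and 0 for P522R against M28L. With only the 4 libraries of the contrast these were 0 and 182. Leaving out a library gave 0 to 41, 0 to 477 and 0 to 218.

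In disease-associated-like nuclei 75, 3 and 91 genes passed. Without the filter 146, 59 and 141 passed, with DESeq2 42, 1 and 48, with the members kept in the clustering 146, 5 and 248, and in Y-positive nuclei 14, 0 and 12. At resolution 1 it was 23 for M28L against 5xFAD and 29 for P522R against M28L, and with 4 libraries 7 for P522R against 5xFAD. Leaving out a library gave 14 to 111, 1 to 14 and 35 to 101.

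Members called in microglia-like nuclei were 0 in each contrast. Without the filter 1 passed for P522R against 5xFAD and 3 for P522R against M28L, and with 4 libraries 1 for P522R against M28L. Leaving out a library gave 0 to 5 and 0 to 1. In homeostatic-like nuclei 1 member passed without the filter for P522R against 5xFAD, and 0 to 1 when a library was left out. In disease-associated-like nuclei 1 member passed for M28L against 5xFAD and 2 for P522R against M28L. For M28L against 5xFAD it was 2 without the filter, 3 with the members kept in the clustering, and 0 in Y-positive nuclei and at resolution 1 (0 to 1 when a library was left out). For P522R against M28L it was 1 with a minimum count of 50 or DESeq2, 5 with the members kept, and 0 in Y-positive nuclei and at resolution 1 (0 to 2). The state by group difference had 1 and 3 members. DESeq2 and Y-positive nuclei gave 0 and 0, the members kept 4 and 6, resolution 1 gave 1 for P522R against M28L, and leaving out a library 0 to 1 and 0 to 3.

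Signs turned in Y-positive nuclei for P522R against 5xFAD for Crybb1 (0.063) and Cx3cr1 (0.053) in microglia-like and Siglech (−0.022) in homeostatic-like nuclei. They also turned for Gpr34 in M28L against 5xFAD in microglia-like nuclei (0.0051), and in P522R against M28L for Gpr34 in homeostatic-like (0.056) and disease-associated-like nuclei (0.018) and Siglech in the latter (0.065). At resolution 1 Gpr34 had 0.021 there. When a library was left out, signs turned for P522R against 5xFAD in microglia-like nuclei for P2ry12 (−0.54 to 0.072), P2ry13 (−0.59 to 0.083), Tmem119 (−0.72 to 0.11), Cx3cr1 (−0.34 to 0.022), Siglech (−0.19 to 0.16) and Selplg (−0.23 to 0.11). For M28L against 5xFAD 6 members turned negative without 5xFAD replicate 3. They turned for Gpr34 in disease-associated-like nuclei (−0.31 to 0.028 for M28L against 5xFAD, −0.29 to 0.054 for P522R against M28L) and for P2ry12 in border macrophage-like nuclei (−0.30 to 0.63, M28L against 5xFAD). With the same mix of clusters the median member difference was 0.035 for P522R against 5xFAD and −0.079 for P522R against M28L. The cause of these changes was not tested.

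With the members kept, the disease-associated-like nuclei took in a cluster of 2732 nuclei led by Ptchd1, F630206G17Rik and Cd83. No early response-like state remained, so those calls are for other nuclei. The members were then also open to the clustering and were markers of the homeostatic-like state. Their calls in that setting, including those for the state by group difference, are therefore not independent of how the states were formed. The share of all genes called for that difference in that setting is not given here. With a replicate block, 19, 396 and 202 genes passed in microglia-like nuclei, and 147 and 58 in disease-associated-like nuclei for M28L and P522R against 5xFAD. There 2 members passed for M28L against 5xFAD. Deviations of same-numbered libraries correlated at 0.167 to 0.316 in microglia-like, 0.106 to 0.244 in homeostatic-like and 0.0612 to 0.107 in disease-associated-like nuclei. Whether a number marks a shared batch is not given in the labels. Xist-positive nuclei were too few for the disease-associated-like, border macrophage-like and state by group fits, and keeping called doublets was not run for the microglial states. Leaving out the high-UMI and one-library clusters and Y-positive nuclei were chosen after seeing the data.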
